A study of Mus musculus with 6 samples.

Results

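The type I interferon response genes described here are 36 named mouse genes of the antiviral program, among them the IFIT, OAS and Mx families, Isg15, Irf7, Stat2 and the Ifi200 genes. Array probes were taken as members where the printed gene name, or the current or former symbol of the probe's RefSeq accession, equalled one of these names. The name Ifi27 reached 2 genes, Ifi27 itself and Ifi27l2a, which formerly bore that symbol. The names therefore gave 37 member genes with 65 probes, of 27529 genes and 41174 probes on the array. All 37 members had a probe that passed the signal filters of both comparisons made below.

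RNA came from 6 tumors grown from Hepa1-6, a mouse hepatoma line, in female C57Bl/6 mice after injection of the cells under the skin. The day 15 tumors carry the numbers 303, 313 and 318, and the day 10 tumors the numbers 302, 307 and 312, where the day counts from inoculation. Each tumor was labelled with Cy5 and hybridised on its own 2-colour Agilent array against total blood RNA of untreated female C57Bl/6 mice in Cy3, with no dye swap. The study's stated design compares 2 conditions, which the labels give as the 2 days. The labels tie no tumor to a mouse, so p-values reflect only how much these tumor samples differ. The 3 day 15 arrays lay on 1 slide with 1 scan time and the 3 day 10 arrays on another slide with another scan time, so slide and day cannot be told apart. A whole tumor holds hepatoma cells and host cells, and fewer cells of a type and less RNA per cell cannot be told apart in it. All values below are log2 ratios of tumor over blood reference unless another quantity is named. Tumors are listed in the order 303, 313 and 318 for day 15, and 302, 307 and 312 for day 10.

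Type I interferons, the interferon alpha and beta proteins, bind the receptor made of Ifnar1 and Ifnar2 on nearly all cells. The receptor kinases Jak1 and Tyk2 then activate Stat2, which enters the nucleus in a complex with Irf9 that binds the interferon-stimulated response element (ISRE) of its target genes. The targets include sensors of foreign nucleic acid, enzymes that block viral RNA, and Irf7, which raises interferon output again. In tumors the same genes are expressed by cancer cells, macrophages, dendritic cells and other host cells, and many of them also answer to interferon gamma.

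RefSeq promoter sequences of build GRCm38.p6 were available for 25 of the 37 members. The ISRE core was searched as GAAANNGAAA, where N is any base, on both strands of the 250 bases before the annotated gene start, and matches may overlap each other. It was found in 10 of 25 members, against 3.46% of all 27025 genes with a promoter in the table and 2.98% of all 32851 promoters. The windows below are shown for 6 members whose values are described later. Each is 60 bases long, runs 5′ to 3′ on the strand of the gene, and carries the core matches in capitals. On the strand opposite to the gene the core reads TTTCNNTTTC.
Isg15: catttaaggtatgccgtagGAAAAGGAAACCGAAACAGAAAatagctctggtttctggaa
Ifit1: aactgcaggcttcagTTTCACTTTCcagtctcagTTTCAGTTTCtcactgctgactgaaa
Ifit3: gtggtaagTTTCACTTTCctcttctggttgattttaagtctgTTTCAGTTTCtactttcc
Rsad2: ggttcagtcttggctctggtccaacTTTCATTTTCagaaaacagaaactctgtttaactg
Oas1a: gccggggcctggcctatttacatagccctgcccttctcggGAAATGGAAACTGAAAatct
Bst2: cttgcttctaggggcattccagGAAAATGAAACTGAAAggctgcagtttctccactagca

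The Isg15 window lies at chr4:156200856-156200915 on the minus strand and holds 3 overlapping matches that begin 78, 72 and 66 bases before the start. The Ifit1 window, chr19:34640770-34640829 on the plus strand, holds matches that begin 104 and 85 bases before the start. The Ifit3 window, chr19:34583365-34583424 on the plus strand, holds matches that begin 156 and 122 bases before the start. The single match of Rsad2 (chr12:26456538-26456597, minus strand) begins 120 bases before its start. Oas1a (chr5:120907526-120907585, minus strand) holds overlapping matches at 20 and 14 bases, and Bst2 (chr8:71537565-71537624, minus strand) at 130 and 124 bases. The other members with a match were Ifi203, Ifi205, Oas3 and Stat2. The GAS core TTCNNNGAA, an element of genes that answer to interferon gamma, reads the same on both strands and stood in 5 of 25 members, against 8.13% of all genes. The median log2 ratio to the reference was 3.41 over the 10 members with an ISRE core match and 1.62 over the 15 without one, while the 12 members with no promoter sequence here had 3.55. The sets with and without a match overlapped widely, between 1.08 and 4.61 with a match and between 0.68 and 4.72 without. A match only says that these letters stand in the window.

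**Figure D1:**
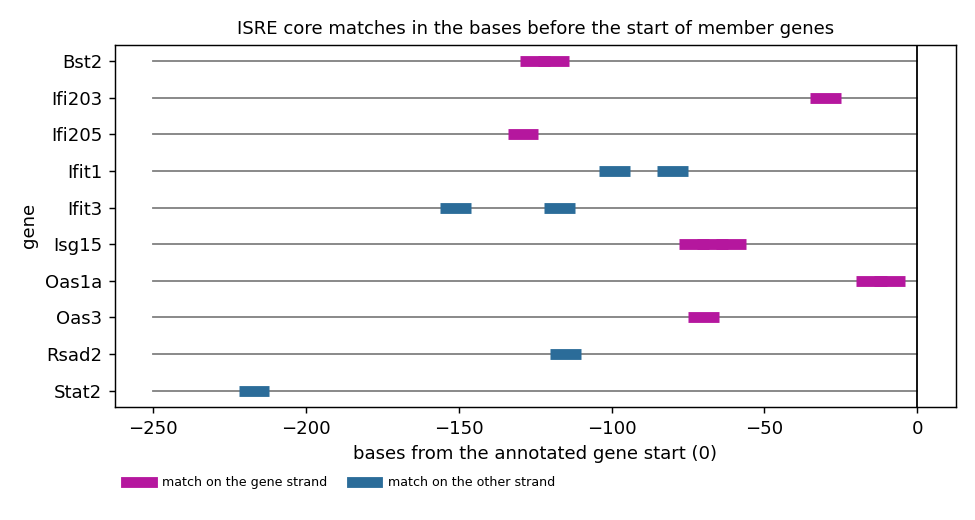
Positions of ISRE core matches (GAAANNGAAA, either strand) in the 250 bases before the annotated start of the 10 member genes that hold one. The horizontal axis is the distance from the start in bases, each line is 1 gene, and the blocks mark matches on the gene strand or on the other strand. Oas1a has its matches nearest to the start, at 20 and 14 bases, and Stat2 its match farthest, at 222 bases.

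One area of 1 array had lost signal, found from the Cy3 signal alone: 18.9% of the spots of tumor 312, and 0% of the spots of the other arrays. The probes that stand for Rsad2, Ifit1, Mx1, Isg20, Trim25, Oasl1 and Tlr3 lie in it. Without the tumor 312 spot the mean ratio was 5.42 for Rsad2 (4.61 with it), 4.23 for Ifit1 (3.43), 2.54 for Mx1 (2.07), 1.98 for Trim25 (1.62) and 1.98 for Oasl1 (1.56). It was 1.82 for Isg20 (1.72 with the spot) and 0.84 for Tlr3 (0.68), and none of the 7 changed its call. Across arrays, 52.4% to 58.5% of probes were well above background in Cy5 and 47.5% to 52.8% in Cy3. The markers of hepatoma cells and hepatocytes (Afp, Alb, Ttr and 7 others) had a median log2 ratio of 2.60, -1.56 and 3.45 in the day 15 tumors, and of 2.47, 2.25 and 2.96 in the day 10 tumors. Tumor 313 thus stood apart, with hepatoma markers below the blood reference.

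All 37 members had a mean ratio above 0, against 58.6% of the 16311 genes tested. With limma, 33 of 37 members were higher in the tumors than in blood at an adjusted p under 0.05 and a log2 ratio of at least 1, and 0 were lower. Over all genes tested the same calls covered 25.5% higher and 9.76% lower. The median log2 ratio was 2.92 over the members and 0.22 over all genes. The highest members were Rtp4, Oasl2, Rsad2 and Oas2, and the 4 that missed a call were Ifi35, Eif2ak2, Tlr3 and Usp18. The test sets the tumors against blood, whose own spread is not measured, and with one dye orientation any dye bias of a probe is part of its ratio. The filters had 60 member probes pass, and all 60 had a ratio above 0, although probes of 1 gene could differ widely in size.

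**Figure D2:**
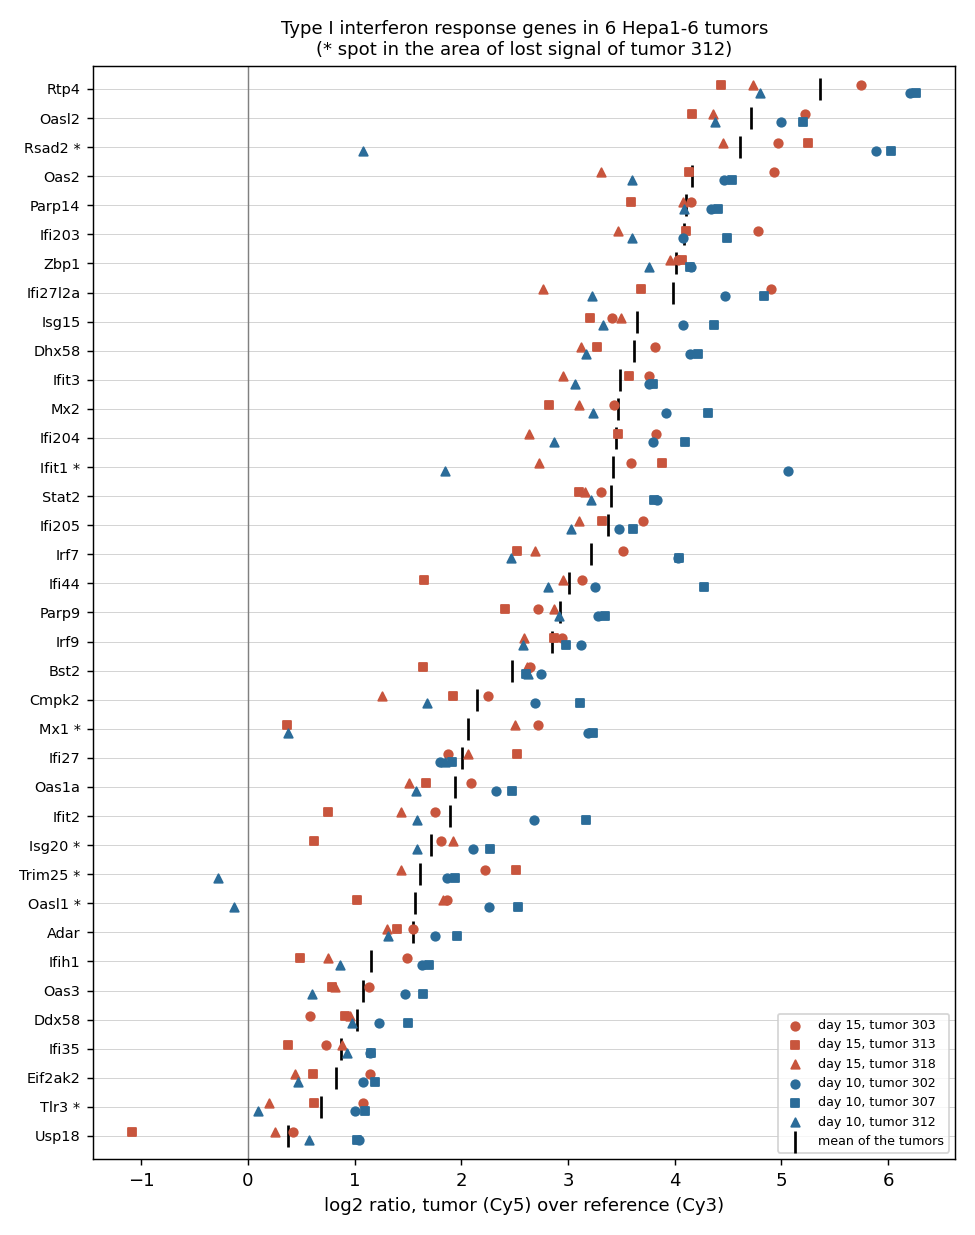
Log2 ratio of tumor (Cy5) over blood reference (Cy3) for the 37 member genes, sorted by mean. Each point is 1 tumor, red for day 15 and blue for day 10, the bar is the mean over tumors, and an asterisk marks a spot in the lost area of tumor 312. Means run from 0.37 for Usp18 to 5.36 for Rtp4, and the points of the days overlap for most genes.

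Among the sensors of nucleic acid, 4 of 5 were called higher in the tumors. Zbp1, which binds Z-form nucleic acid and can trigger necroptosis, had log2 ratios of 4.03, 4.07 and 3.95 in day 15 tumors, against 4.15, 4.14 and 3.76 in day 10 tumors. Its mean of 4.02 ± 0.15 (SD, 6 tumors, adjusted p = 1.98e-07) had the smallest spread over tumors of all members. Dhx58, the helicase LGP2 that regulates its relatives, had 3.81, 3.27 and 3.12 in day 15 tumors, against 4.14, 4.22 and 3.17 in day 10 tumors. The related helicase Ddx58 (RIG-I), a sensor of viral RNA ends, was much closer to blood, with 0.58, 0.91 and 0.96 in day 15 tumors, against 1.23, 1.5 and 0.97 in day 10 tumors. Its mean was 1.02 ± 0.31 on the probe that stands for it, while its other tested probes gave 1.96 and 0.40. Ifih1 (MDA5), the sensor of long double-stranded RNA, averaged 1.15 and ranged between 0.48 and 1.70. Tlr3, the endosomal receptor for double-stranded RNA, had 1.08, 0.62 and 0.19 in day 15 tumors, against 1.0, 1.10 and 0.10 in day 10 tumors. Its mean of 0.68 ± 0.45 (adjusted p = 0.00887) was below the minimum ratio of the call, and its tumor 312 spot lies in the lost area.

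The signalling members Irf7, Irf9 and Stat2 were all called higher in the tumors. Irf7, the master regulator of interferon alpha transcription, had 3.52, 2.52 and 2.69 in day 15 tumors, against 4.03, 4.04 and 2.47 in day 10 tumors. The day 10 tumors 302 and 307 were the highest and tumor 312 the lowest of the 6. Stat2 averaged 3.41 and ranged between 3.1 and 3.84, and Irf9, its partner in the nuclear complex, averaged 2.85 and ranged between 2.57 and 3.12. A dimmer second Irf9 probe gave a mean of 0.48.

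All 3 IFIT genes, whose proteins bind foreign RNA and block its translation, were called higher. Ifit3 had 3.76, 3.57 and 2.95 in day 15 tumors, against 3.76, 3.80 and 3.07 in day 10 tumors. A second, dimmer Ifit3 probe had a mean of 1.59, with Cy3 not well above background on any array. Its difference of day 15 minus day 10 was -0.99, against -0.11 on the probe that stands for Ifit3. Ifit2 had 1.75, 0.75 and 1.43 in day 15 tumors, against 2.68, 3.17 and 1.59 in day 10 tumors. Of the day 10 tumors, 302 and 307 lay above all 3 day 15 tumors and 312 among them. A second Ifit2 probe had a mean of 0.95, below the minimum ratio of the call, and a day 15 minus day 10 difference of -1.05. Ifit1 was not well above background in Cy3 on any array, so that its mean over 5 tumors was at least 9.90-fold higher in the tumors (adjusted p = 0.0011), with the outlying spot of tumor 307 left out by the fit. Its log2 ratio was 1.85 in the lost area of tumor 312 and 2.73 to 5.06 in the other 4 tumors, and without the tumor 312 spot it was at least 12.8-fold higher. Ifit3 has a near-identical copy, Ifit3b, whose RNA may bind the same probe.

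The OAS family is named for enzymes that make the oligoadenylates that switch on RNase L, and its genes were all called higher, 5 of 5. Oasl2 had 5.22, 4.16 and 4.36 in day 15 tumors, against 4.99, 5.20 and 4.37 in day 10 tumors. Oas2 had 4.93, 4.13 and 3.31 in day 15 tumors, against 4.46, 4.54 and 3.60 in day 10 tumors. For both genes the day 15 tumor 303 and the day 10 tumors 302 and 307 were on top. Oas3 was the lowest of the family, with 1.14, 0.79 and 0.81 in day 15 tumors, against 1.47, 1.64 and 0.61 in day 10 tumors, and its Cy3 signal was well above background on only 2 arrays. Oas1a, one of several close copies that can share a probe, averaged 1.94 and ranged between 1.51 and 2.47. Oasl1, which in mice restrains Irf7 translation, averaged 1.56, with a lowest value of -0.13 from the lost area of tumor 312 and 1.02 to 2.53 in the other tumors.

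Both Mx genes, dynamin-like GTPases that trap viral particles, were called higher. Mx2 had 3.43, 2.82 and 3.1 in day 15 tumors, against 3.92, 4.32 and 3.24 in day 10 tumors. Mx1, of which most inbred laboratory strains carry a defective allele, averaged 2.07 but was uneven between tumors, with 0.37 in tumor 313 of day 15 and 0.38 in the lost area of tumor 312, and 2.51 to 3.24 elsewhere. On the array of tumor 313 the Cy3 signal of the Mx1 probe was 9.66 in log2 units after quantile normalization, against 6.31 to 6.99 on the other arrays. A second, dimmer Mx1 probe outside the lost area had 0.23 in tumor 313 too, 1.01 in tumor 312 and a mean of 1.14. Its Cy3 signal was not well above background on any array.

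The ISG15 system split. Isg15, the ubiquitin-like modifier, had 3.41, 3.21 and 3.50 in day 15 tumors, against 4.08, 4.37 and 3.33 in day 10 tumors, with a mean of 3.65 ± 0.46. Usp18, which strips ISG15 from proteins and dampens Ifnar2 signalling, was the lowest member, with 0.42, -1.08 and 0.25 in day 15 tumors, against 1.04, 1.02 and 0.57 in day 10 tumors. The mean of Usp18 was 0.37 ± 0.78 (adjusted p = 0.134), its sign turned to -0.53 when arrays were centred on the median without loess, and its Cy3 signal of 12.9 to 13.2 was among the brightest of the members. Trim25, a ubiquitin ligase of the RIG-I pathway, had 2.22, 2.51 and 1.43 in day 15 tumors, against 1.87, 1.94 and -0.28 in day 10 tumors, the last of these from the lost area.

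Of 5 effectors that act on nucleic acids or nucleotides, 4 were called higher. Rsad2 (viperin), a radical SAM enzyme that makes a chain-terminating nucleotide, had 4.97, 5.25 and 4.45 in day 15 tumors, against 5.88, 6.03 and 1.08 in day 10 tumors. Its value in tumor 312 comes from the lost area. Cmpk2, a mitochondrial nucleotide kinase encoded next to Rsad2, had 2.25, 1.92 and 1.25 in day 15 tumors, against 2.69, 3.11 and 1.68 in day 10 tumors. Eif2ak2 (PKR), the kinase that halts translation on double-stranded RNA, had 1.15, 0.61 and 0.44 in day 15 tumors, against 1.08, 1.19 and 0.47 in day 10 tumors. Its mean of 0.82 ± 0.35 (adjusted p = 0.0013) missed the minimum ratio. The exonuclease gene Isg20 averaged 1.72 and the RNA editing enzyme gene Adar 1.55.

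Parp14 and Parp9, members of the ADP-ribosyltransferase family, were both called higher. Parp14 had 4.15, 3.59 and 4.08 in day 15 tumors, against 4.34, 4.40 and 4.09 in day 10 tumors. Parp9 had 2.72, 2.41 and 2.87 in day 15 tumors, against 3.28, 3.35 and 2.92 in day 10 tumors, and the days did not overlap. The Ifi200 genes, relatives of the DNA sensor Aim2, were all called higher. Ifi203 had 4.78, 4.10 and 3.47 in day 15 tumors, against 4.08, 4.49 and 3.60 in day 10 tumors. Ifi204 averaged 3.45 and Ifi205 3.37, and these close relatives may share RNA on their probes. A dim Ifi203 probe gave a mean of 0.86, and the other 2 gave 4.09 and 4.0.

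Among the remaining effectors, 5 of 6 were called higher. Rtp4, a chaperone of membrane receptors that restrains RNA viruses, had 5.75, 4.44 and 4.73 in day 15 tumors, against 6.20, 6.26 and 4.80 in day 10 tumors, with the highest mean of all members, 5.36 ± 0.80 (adjusted p = 5.88e-06). Ifi27l2a, a small hydrophobic protein gene, had 4.91, 3.68 and 2.77 in day 15 tumors, against 4.47, 4.84 and 3.22 in day 10 tumors. Its values in each day spread over more than 1 log2 unit. Ifi44 had 3.13, 1.65 and 2.96 in day 15 tumors, against 3.25, 4.27 and 2.81 in day 10 tumors, and was at least 7.05-fold higher in the tumors, because its Cy3 signal was not well above background on any array. Ifi35, the partner of Nmi, had 0.73, 0.37 and 0.88 in day 15 tumors, against 1.14, 1.15 and 0.93 in day 10 tumors, so the days did not overlap. Bst2 (tetherin), which holds budding virus on the cell surface, averaged 2.48, and Ifi27 averaged 2.0.

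Between the days 0 of 37 members passed the limma test at an adjusted p of 0.05, in which 0.057% of the 15790 genes tested were called. Every member had an adjusted p of 1.0. The difference of day 15 minus day 10 was below 0 for 30 of 37 members, against 45% of all genes, with a median of -0.36 over the members and 0.02 over all genes. At an unadjusted p under 0.05, 3 members were lower at day 15 (1.57% of all genes) and 0 were higher (2.44%). The 3 were Ifit2 at -1.17 ± 0.45 (SE, unadjusted p = 0.0383), Usp18 at -1.01 ± 0.41 (unadjusted p = 0.0457) and Parp9 at -0.52 ± 0.19 (unadjusted p = 0.0336), where limma was fitted over all 6 tumors. All 3 day 15 tumors lay below all 3 day 10 tumors for Usp18, Parp9, Ddx58 and Ifi35, 4 of 37 members, against 3.92% of all genes. The difference was -0.41 for Ddx58 and -0.41 for Ifi35. The reverse order held for 0 members, against 5.22% of all genes.

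With all spots kept, the other members of largest difference were Ifi44 at -0.87, Rtp4 at -0.78, Mx2 at -0.71, Cmpk2 at -0.69, Irf7 at -0.60 and Isg15 at -0.55. In each of these the day 10 tumors 302 and 307 lay above every day 15 tumor and tumor 312 did not. The differences above 0 were largest for Trim25, at 0.88, and Rsad2, at 0.56, both with a tumor 312 spot in the lost area. Without that spot Trim25 had 0.15 and Rsad2 had -1.07 (unadjusted p = 0.00823 in limma). The order of the members also changed for the other genes in the lost area. Ifit1 then had the largest difference of all members, -1.66 (unadjusted p = 0.0234 in limma) against -0.05 with the spot, but 1 day 10 tumor alone was left for it. Mx1 had -1.35 (unadjusted p = 0.114) against -0.41 with the spot, and Oasl1 had -0.83 (unadjusted p = 0.0382) against 0.01, where limma had 2 day 10 tumors for each. Isg20 had -0.73 against -0.53 with the spot, and Tlr3 -0.42 against -0.10. A second Rsad2 probe outside the lost area gave -0.75, a second Trim25 probe -0.03 and a second Mx1 probe -0.51. With the lost area left out, 32 of 37 members were below 0 (46.9% of all genes), 6 had an unadjusted p under 0.05 (1.73%) and 9 had days that did not overlap (5.05%), and again 0 passed the adjusted test. Without the array of tumor 312 the median of the members was -0.64, and without that of tumor 307 it was -0.12.

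**Figure D3:**
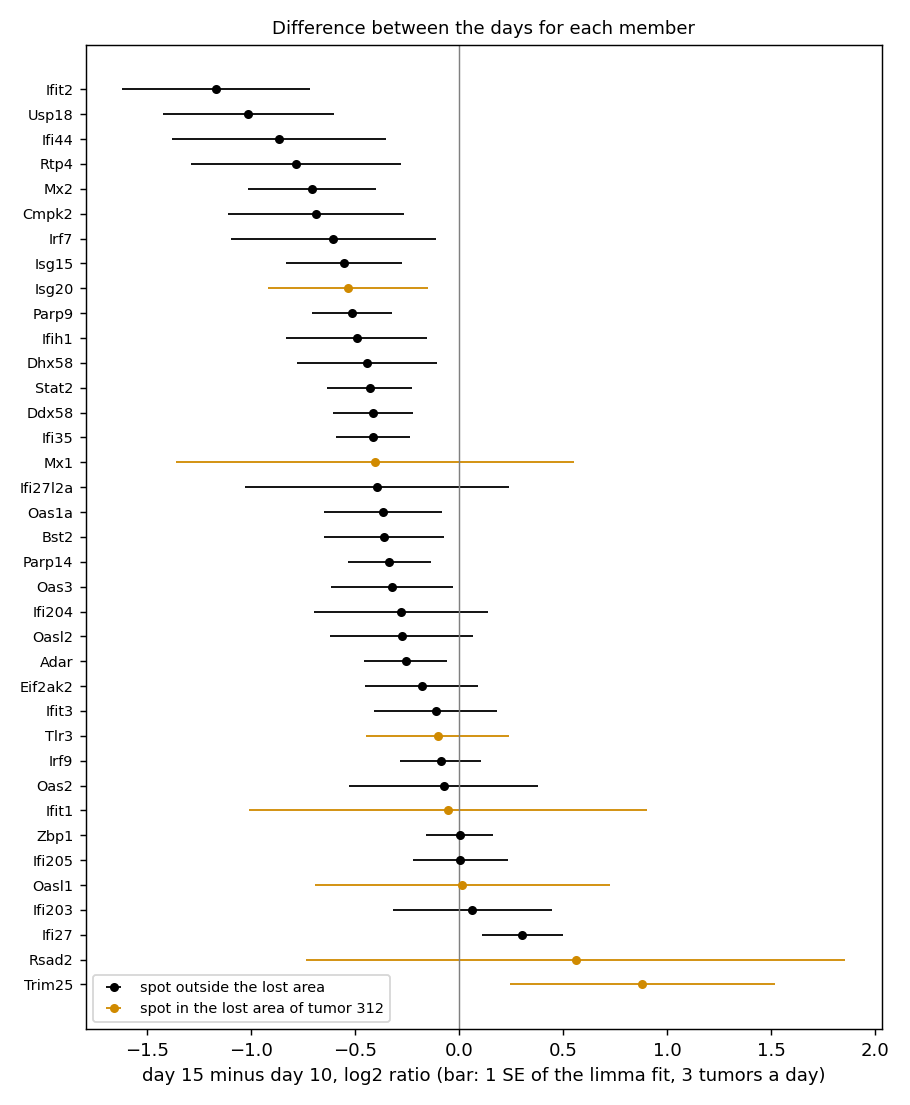
Day 15 minus day 10 difference of the log2 ratio for the 37 members, sorted, with the most negative on top. Points are limma estimates from 3 tumors a day, except for Ifit1, which has no value in tumor 307. Bars are 1 SE, and the orange points stand on a spot in the lost area of tumor 312. Of the 37 points, 30 lie below 0, from -1.17 for Ifit2 at one end to 0.88 for Trim25 at the other.

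The members did not vary evenly over the tumors. Their median ratio was 2.95, 2.52 and 2.63 in the day 15 tumors, and 3.25, 3.29 and 2.47 in the day 10 tumors, so the days overlapped through tumor 312. Over the 30 members with a value on all arrays once the lost area was left out, the medians were 3.22, 2.67 and 2.73 in the day 15 tumors, and 3.38, 3.70 and 2.80 in the day 10 tumors, so tumor 312 still lay below tumor 303. Tumor 307 held the highest ratio for 24 of the 36 members with a value on all arrays (66.7%), against 8.94% of 16140 genes. Tumor 313 held the lowest for 15 (41.7%), against 30.4% of all genes. With the lost area kept, tumor 312 was the lowest of the day 10 tumors for 34 of 36 members (94.4%), against 42.8% of 16201 genes. Outside the lost area it was the lowest for 28 of 30 members (93.3%), where the share of all genes was not counted. Tumor 307 also led for 21 to 25 of the members under the alternatives of background, signal, normalization and probe choice that kept the 36 members and all arrays.

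Both dyes were also compared on their own, since the blood reference is labelled alike on all arrays. In the tumor channel (Cy5), 31 of 37 members had a signal below 0 in the difference of day 15 minus day 10, against 61.8% of all genes, with a median of -0.57 against -0.10. The limma test called 0 members there (0% of all genes), and 8 had an unadjusted p under 0.05, all 8 lower at day 15, against 2.06% of all genes lower at that p. In the reference channel (Cy3), 28 of 33 members were lower on the day 15 slide, against 70.3% of 13928 genes, with a median of -0.31 against -0.13. There 0 members were called (0% of all genes), and 7 of 33 had an unadjusted p under 0.05, against 1.55% of all genes. For Isg15 the reference signal was 9.0, 8.78 and 9.01 log2 units on the day 15 arrays, against 9.93, 10.48 and 9.87 on the day 10 arrays, with a difference of -1.16 (unadjusted p = 0.00125, limma). Its Cy5 difference was -1.52, so that the difference of the ratio, -0.55, is smaller than that of either dye. Ifit3 had Cy3 and Cy5 differences of -1.56 and -1.47. For Usp18 the reference signal differed by 0.09 and the tumor signal by -0.91. The skeletal muscle markers, of which 5 of 7 were called lower at day 15 in the ratio, had a median Cy5 difference of -4.84 and a median Cy3 difference of -2.67. Signals of both dyes thus moved together for these markers too, but not for every list. The hepatoma markers had a median difference of -1.23 in Cy5 and 0.006 in Cy3. Why the reference signal of members differed between slides was not tested.

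**Figure D4:**
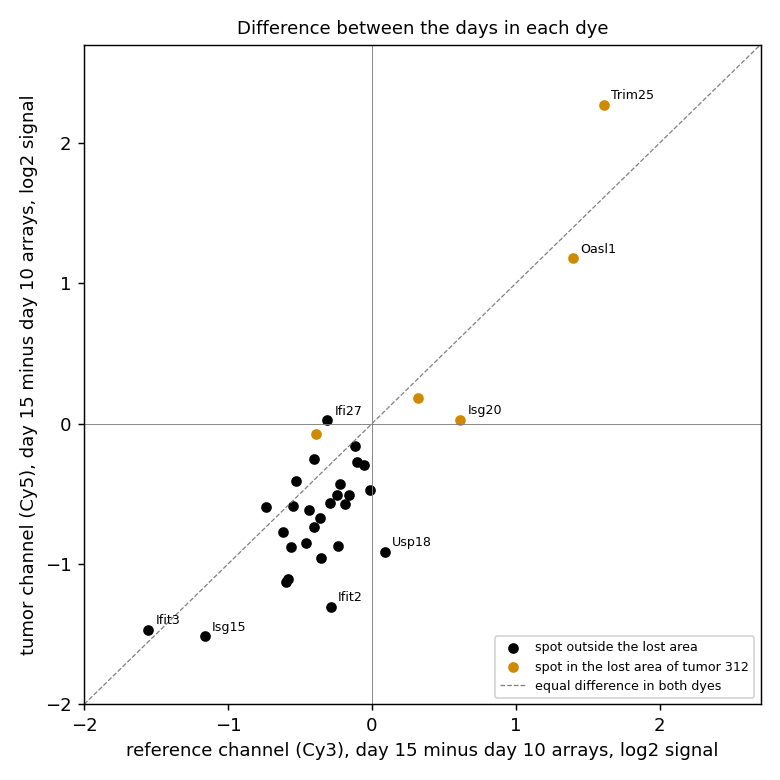
Difference of day 15 minus day 10 arrays in the tumor channel (Cy5, vertical) against that in the reference channel (Cy3, horizontal), in log2 signal after quantile normalization, for the 33 members measured in both dyes. Each point is 1 member, orange where the tumor 312 spot lies in the lost area, and the dashed line marks equal differences. Isg15 and Ifit3 lie far down in both dyes, and Usp18 and Ifit2 mostly in Cy5.

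Genes around the members were read from lists of the interferon pathway. Of 13 interferon ligand genes on the array, 7 were tested and 2 were called higher than blood, Ifng, the type II interferon, at 5.42 and Ifna9 at 1.14. Ifnb1, named for its role, was not well above background in either dye on any array. Of 9 receptor and kinase genes, 7 were called higher and Jak2 lower, at -1.02. The largest ratios were Il10rb at 2.30, Ifngr2 at 2.0 and Ifnar2 at 1.88, and Ifnar1 had 1.19. Of 8 transcription factors 7 were higher, among them Irf8 at 3.47, Irf5 at 3.21 and Irf1 at 3.18. Of 15 further sensors and adaptors 10 were higher. The endosomal receptor Tlr7 was at least 12.5-fold higher, with -0.15 in tumor 312 and 3.68 to 5.12 in the other tumors, the trafficking protein Unc93b1 had 3.11 and Nod2 2.77. Values of the pathway lists keep any spot in the lost area of tumor 312. Of 8 negative regulators 6 were higher, led by Socs1 at 3.54 and the phosphatase Ptpn6 at 2.69.

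A further 34 interferon-stimulated genes outside the members held 26 called higher than blood and 1 lower. Epsti1 had 5.71, the large GTPase Gvin1 4.89, Phf11d 4.40 and Uba7, the enzyme that activates Isg15, 4.13. The lower gene was Pnpt1 at -1.10. Their difference between days was below 0 for 28 of 34, against 45% of all genes, with a median of -0.19, and 0 were called. Among the negative regulators Samhd1, which degrades nucleotides, had 1.39, 1.05 and 1.66 in day 15 tumors, against 2.13, 2.13 and 1.93 in day 10 tumors, a difference of -0.69 (unadjusted p = 0.010, limma) that did not pass the adjusted test. Of the other pathway lists, 0 genes were called between the days, and the medians lay between -0.03 and 0.09.

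**Figure D5:**
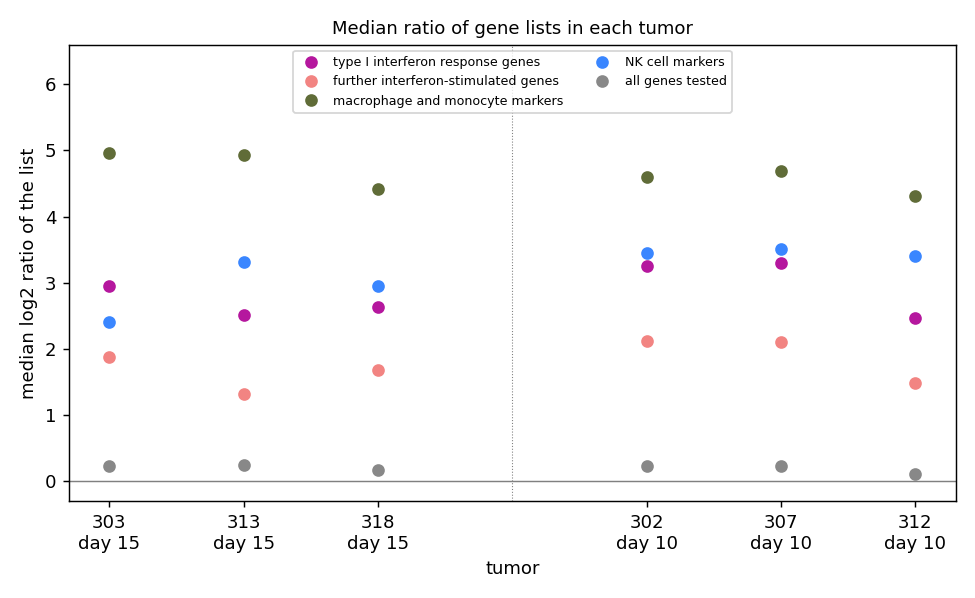
Median log2 ratio of tumor over blood reference in each tumor for the members, further interferon-stimulated genes, macrophage markers, NK cell markers and all genes tested. Day 15 tumors stand on the left and day 10 tumors on the right, and each point is the median of 1 list on 1 array. The median of the members lies between 2.47 and 3.29 and that of all genes between 0.11 and 0.25.

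Markers of host and hepatoma cells were read beside the members, and their part in the member values was not tested. All 12 macrophage and monocyte markers were called higher than blood, with list medians of 4.96, 4.93 and 4.42 in day 15 tumors, and 4.61, 4.69 and 4.32 in day 10 tumors. Their difference between days was above 0 for 12 of 12, against 8680 of 15790 genes. Its median was 0.18, opposite in sign to that of the members. In the tumor channel alone (Cy5) their median difference was 0.07, with 5 of 12 below 0. In the reference channel (Cy3) it was -0.26, with 12 of 12 below 0, against 70.3% of all genes. NK cell markers had medians of 2.40, 3.31 and 2.95 in day 15 tumors, and 3.45, 3.51 and 3.41 in day 10 tumors. Their difference was below 0 for 5 of 6, against 45% of all genes, with a median of -0.63 and 0 called. Of the 6, 3 were lower at day 15 at an unadjusted p under 0.05 in limma (1.57% of all genes). For 3 of 6 all day 15 tumors lay below all day 10 tumors (3.92%). The median difference of the NK cell markers was -1.23 in Cy5, with 6 of 6 below 0, and -1.52 in Cy3, with 2 of 2 below 0. Of 6 tested markers of plasmacytoid dendritic cells, which make much interferon alpha, 3 were higher than blood and the list median lay between 0.82 and 1.32 in every tumor. Markers of other cell types were read between the days too. Endothelial markers had a difference above 0 for 7 of 7, with a median difference of 0.75 and 0 called. Of the 7, 6 had an unadjusted p under 0.05 in limma, against 2.44% of all genes higher at that p. Fibroblast markers (8 of 8, median 0.48), T cell markers (7 of 7, median 0.39), erythroid markers (4 of 4, median 0.55) and adipocyte markers (5 of 5, median 1.77) were above 0 as well, with 0 called. The T cell list had a median ratio of 0.45 in tumor 312, against 3.40 and 3.33 in the other day 10 tumors. The adipocyte list had 0.09 in tumor 312, against 3.08 and 3.02, and 1.24 in the day 15 tumor 318. The days did not overlap for any of the 4 erythroid markers, all higher at day 15, against 5.22% of all genes. B cell and neutrophil markers had median differences of 0.67 and 0.22, with 0 called. The B cell list had a median ratio of 0.37 in tumor 312, against 1.24 and 1.26 in the other day 10 tumors. Ratios and day differences of all marker lists keep spots in the lost area, which held 18.9% of the spots of tumor 312. The part of that area in the low T cell, adipocyte and B cell values of tumor 312 was not tested. Skeletal muscle markers were below 0 for 7 of 7, with a median of -3.86 and the 5 calls given above. The hepatoma markers had a median difference of -1.34 between the days, with tumor 313 below every other tumor.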

How the data were processed

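The deposited scanner files come from Agilent Feature Extraction 9.1.3.1, per the file headers, and hold for each spot and dye a mean intensity and a median background intensity that were not normalized. The authors' deposited value table has log10 ratios equal to those of the scanner files, and was used as an alternative after conversion to log2. From the 45018 spots per array, limma 3.58.1 (R 4.3.3) applied normexp with an offset of 50 and loess within arrays. Control spots (1639) and outlier spots (45 to 71 per array) were dropped before repeated spots of 1 probe were averaged. Probes well above background on at least 3 arrays, in Cy5 for the days and in either dye for the reference comparison, were fitted on log2 ratios. Benjamini-Hochberg adjustment ran over all 23081 and 24265 probes tested, with a threshold of 0.05 and, against blood, a log2 ratio of at least 1. The brightest probe stood for a gene. An "at least" fold sets the mean tumor signal against the lowest signal well above background. Lost signal was a local fall of the Cy3 signal of over 0.5 log2 units. Single dyes were fitted after quantile normalization. The number of arrays limits the precision. The fit was tested on simulated data with shifts larger than the day difference of any member. That test therefore does not show how often differences as small as those of the members would be called.

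Probe names were updated through RefSeq accessions and symbols. Values in all tumors are given for the 12 members of highest and 6 of lowest mean ratio, the 10 of largest day difference and any that passed the day test; Parp9 and the promoter windows were added after values were seen. Of other lists, up to 4 genes of largest ratio or day difference are named. The values of 1 such gene are not reported here. The members and lists were chosen with earlier results of these data known.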

Additional observations from a re-analysis of the deposited data

Results flagged for a closer look

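In 4 of the 37 members the highest or lowest of the 6 tumors stood far from the others by Dixon's criterion, which chance meets in about 1 of 20 groups. That rate does not account for the 6 values coming from both days, and the share of all genes that meet the criterion was not counted. Tumor 313 held the highest ratio for 33.7% of 16140 genes and the lowest for 30.4%. Usp18 had -1.08 in tumor 313 of day 15, where the nearest tumor had 0.25. Bst2 had 1.64 in the same tumor, with the nearest at 2.60. Ifi27 had its highest value, 2.53, there too, with the nearest at 2.07. Rsad2 had 1.08 in tumor 312 of day 10, from a spot in the area of lost signal, with the nearest tumor at 4.45. Hepatoma markers had a median ratio of -1.56 in tumor 313, and whether that bears on the 3 genes was not tested.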

How the results depend on the processing

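Among 15 alternatives to the reported processing and the tumor channel alone, 0 members passed the adjusted day test under any, and the median day difference stayed below 0. It lay between -0.69 (median centring in place of loess) and -0.12 (without tumor 307), and was -0.64 without tumor 312. With median centring the median over all genes was itself -0.30. The members with an unadjusted p under 0.05 and lower at day 15 numbered 15 without tumor 312 (2.03% of all genes), 14 with median centring (22.7%), 6 without the lost area (1.73%), 1 without tumor 313 (2.35%), and 0 without tumor 302 (0.798%) and without tumor 307 (0.855%). Members with all day 15 tumors below all day 10 tumors numbered 26 without tumor 312 (8.25% of all genes), 11 without tumor 303 (7.84%), 13 with median centring (37.4%), 9 without the lost area (5.05%), 6 with the scanner software's signals (4.79%) and 1 with no background correction (3.6%). Members called higher than blood numbered 27 with median centring, where the median of all genes was -0.34, 30 to 33 elsewhere with the minimum ratio, and 36 without it. Their median ratio was 2.54 with the mean of all probes of a gene and 2.26 with median centring. The difference of Rsad2 reversed to -1.07 without the lost area of tumor 312 and without that tumor, to -0.042 with the mean of its probes and to -0.077 in Cy5 alone, and reached 1.41 without tumor 307. The ratio of Ifit1 was 4.23 without tumor 312 or its lost area and 2.62 without tumor 302. Below the minimum ratio fell Ddx58, at 0.96 without tumor 307 and 0.99 without tumor 318, and Oas3, at 0.98 without tumor 307. The ratio of Usp18 reversed to -0.53 with median centring. Leaving out tumors in the single dyes was chosen after seeing the data. The reference channel median then ranged between -0.44 (without tumor 302) and -0.15 (without tumor 312). No paired analysis was possible because the day 15 and day 10 tumors share no replicate number. With the position of the array on its slide as a block, which pairs arrays and not tumors, 3 members were lower (1.73% of all genes) and 1 higher (4.23%) at an unadjusted p under 0.05, and 0 passed the adjusted test. With 3 tumors a day on 1 slide each, no dye swap and no replicate of the reference, these data cannot tell day from slide.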
